A study of Mus musculus with 12 samples.

Results

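Bone cells steer the formation of osteoclasts, the cells that resorb bone, through a small set of secreted and membrane-bound signals. The 8 genes described here encode such signals and related cytokines, and were taken by name: Tnfsf11, Tnfrsf11b, Csf1, Il34, Il6, Il33, Cxcl12 and Lif. They were chosen with earlier results of these data known. All 8 were found among the 35214 genes named in the data, and 6 of them had enough reads to be tested with 12542 genes in all. Tnfsf11 and Il6 did not.

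RANKL, the product of Tnfsf11, binds its receptor RANK on osteoclast precursors and drives them to fuse and resorb, and osteoprotegerin, the product of Tnfrsf11b, is a soluble decoy that captures RANKL. CSF1 and IL-34 are alternative ligands of the same receptor, CSF1R, which keeps precursors alive and dividing. IL-6 and LIF are cytokines that signal through the shared chain gp130 to STAT3, IL-33 is an IL-1 family cytokine sensed through the receptor ST2, and CXCL12 is the chemokine that holds hematopoietic cells in the marrow through CXCR4. Osteocytes, the cells embedded in bone matrix, are a main source of RANKL in adult bone.

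The cells were Ocy454, an established mouse osteocyte-like line, so all libraries come from a single line in culture and no marrow cells were added. After 5 days of differentiation they received either 200 nM BGJ398, which inhibits the kinases of the FGF receptors, or the vehicle DMSO for 1 h, and then either FGF2 at 2 ng/mL or control treatment for 48 h, so that RNA was taken on day 7. The 4 groups of 3 libraries are DMSO (neither agent), DMSO+FGF2 (FGF2 only), BGJ398 (inhibitor only) and BGJ398+FGF2 (both). Polyadenylated RNA was sequenced. Levels are given as CPM, the share of a gene in the reads of its library, counted per 1e+06 reads and scaled between libraries, to compare 1 gene between groups, and as TPM, which also corrects for transcript length, to compare genes with each other. Each library held 18951710 to 27716975 reads.

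The labelled cell type was checked against marker genes. The osteocyte markers Sost and Mepe had 0 reads in every library, Dmp1 had 0 to 7 reads and Fgf23 0 to 2. Of the other osteocyte markers, Phex had 4 to 13 reads, Pdpn had 499 to 977 and rose with FGF2 in DMSO by 0.52 ± 0.08 (log2 ± SE, adjusted p = 0.000581), and Irx5 had 447 to 887 and fell by 0.62 ± 0.09 (adjusted p = 0.000408). All 8 osteoblast markers had enough reads to be tested, though Ibsp (0 to 44 reads per library) and Bglap (6 to 30) had few. All 8 fell with FGF2 in DMSO, where 5.82% of all tested genes fell. Among 10 osteoclast markers, Calcr had 0 reads and Acp5 0 to 5, but Ctsk had 1109 to 1820 reads, Nfatc1 838 to 1309, Itgb3 195 to 385 and Mmp9 92 to 212, and Mmp9 fell with FGF2 in DMSO by 0.70 ± 0.14 (adjusted p = 0.0034). Among 10 macrophage and blood markers Adgre1 and Hbb-bs had 0 reads, Ptprc 0 to 1 and Spi1 0 to 6. The summed TPM of those 10 markers was 13.4 to 15.01 with FGF2 in DMSO against 6.57 to 8.53 in DMSO, 7.84 to 10.0 in BGJ398 and 8.05 to 9.29 in BGJ398+FGF2. Cd68, a lysosomal protein of macrophages that other cells also make, rose by 1.94 ± 0.22 on the log2 scale with FGF2 in DMSO (adjusted p = 6.59e-05), from a mean TPM of 2.92 to 10.3, and carried the rise of the sum. Lyz2, another marker of that list, went the other way, at a mean TPM of 1.52 in DMSO and 0.632 with FGF2 (-1.19 ± 0.40, adjusted p = 0.0658). Cd68 therefore moved with the changes described below, and its part in them was not tested. In bulk RNA, fewer cells that make a transcript and less transcript per cell cannot be told apart. On the first axis of deviations from the group means, 3 libraries deviated most within their groups and are described as standing apart. These were library 2 of BGJ398+FGF2 (0.682), library 2 of DMSO+FGF2 (0.334) and library 1 of BGJ398 (0.248). Library 3 of these groups lay on the other side, at -0.398, -0.251 and -0.208, so for BGJ398 the separation was slight. Counts of tested members are given with and without the 3 libraries that stood apart.

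Promoters of some of the 8 genes give the sequence context of these signals. The RefSeq (GRCm38.p6) promoter set used here held 6 of the 8 genes and lacked Il34 and Tnfrsf11b. Csf1, Cxcl12 and Il33 are shown as the 250 bases before the annotated start, 5′ to 3′ on the strand of the gene. Cxcl12 was the most abundant of the 8 genes and fell with FGF2. Csf1 was the more abundant ligand of CSF1R and passed as lower under BGJ398 only with FGF2 present. Il33 had the largest fold change and has 2 annotated starts. The region of Cxcl12 is chr6:117168285-117168534 on the plus strand, that of Csf1 is chr3:107760470-107760719 on the minus strand, and those of Il33 are chr19:29924863-29925112 and chr19:29945540-29945789 on the plus strand. Capitals mark the GC box GGGCGG, or its reverse complement, in Cxcl12 and Csf1, and the TATA box TATAAA in Il33.
Cxcl12: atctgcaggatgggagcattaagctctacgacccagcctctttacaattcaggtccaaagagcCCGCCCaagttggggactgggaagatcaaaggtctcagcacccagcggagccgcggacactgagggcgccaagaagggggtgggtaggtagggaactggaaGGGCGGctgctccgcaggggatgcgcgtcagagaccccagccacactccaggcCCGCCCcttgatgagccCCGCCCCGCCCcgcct
Csf1: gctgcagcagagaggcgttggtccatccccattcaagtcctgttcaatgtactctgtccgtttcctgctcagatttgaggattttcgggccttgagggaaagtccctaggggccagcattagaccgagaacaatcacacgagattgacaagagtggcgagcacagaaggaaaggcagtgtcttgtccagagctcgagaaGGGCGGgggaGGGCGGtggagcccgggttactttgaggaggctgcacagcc
Il33 (first start): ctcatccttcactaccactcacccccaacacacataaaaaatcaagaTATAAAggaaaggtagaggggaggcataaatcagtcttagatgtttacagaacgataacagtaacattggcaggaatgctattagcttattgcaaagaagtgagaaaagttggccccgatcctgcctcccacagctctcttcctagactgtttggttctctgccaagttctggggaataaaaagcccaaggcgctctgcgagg
Il33 (second start): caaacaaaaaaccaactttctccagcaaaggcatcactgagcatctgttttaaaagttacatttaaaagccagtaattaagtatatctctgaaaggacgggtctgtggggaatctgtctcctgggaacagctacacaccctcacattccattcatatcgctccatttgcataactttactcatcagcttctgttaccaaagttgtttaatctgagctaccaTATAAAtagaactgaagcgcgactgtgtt

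The Cxcl12 window held 5 GC boxes, the 2 nearest the start overlapping by 1 base, and the Csf1 window held 2, at 51 to 46 and 41 to 36 bases before the start. The GC box is the binding motif of SP1 family factors, and 32.7% of 32851 promoter windows of this length held at least 1 on either strand. The TATA box, which positions the start of transcription, lay 29 to 24 bases before the second Il33 start and 203 to 198 bases before the first, and 12.4% of windows held the motif. The motif GGAAGT of ETS factors, which was in 19.7% of windows, occurred 2 times in the Lif window and in none of the 4 shown. The AP-1 motif TGANTCA (6.75% of windows) was found in the Lif and Il6 windows, the CRE motif TGACGT (6.47%) in Il6, and the STAT motif TTCNNNGAA (7.02%) in none of the 6 genes. These matches describe letters only and do not show binding.

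**Figure D1:**
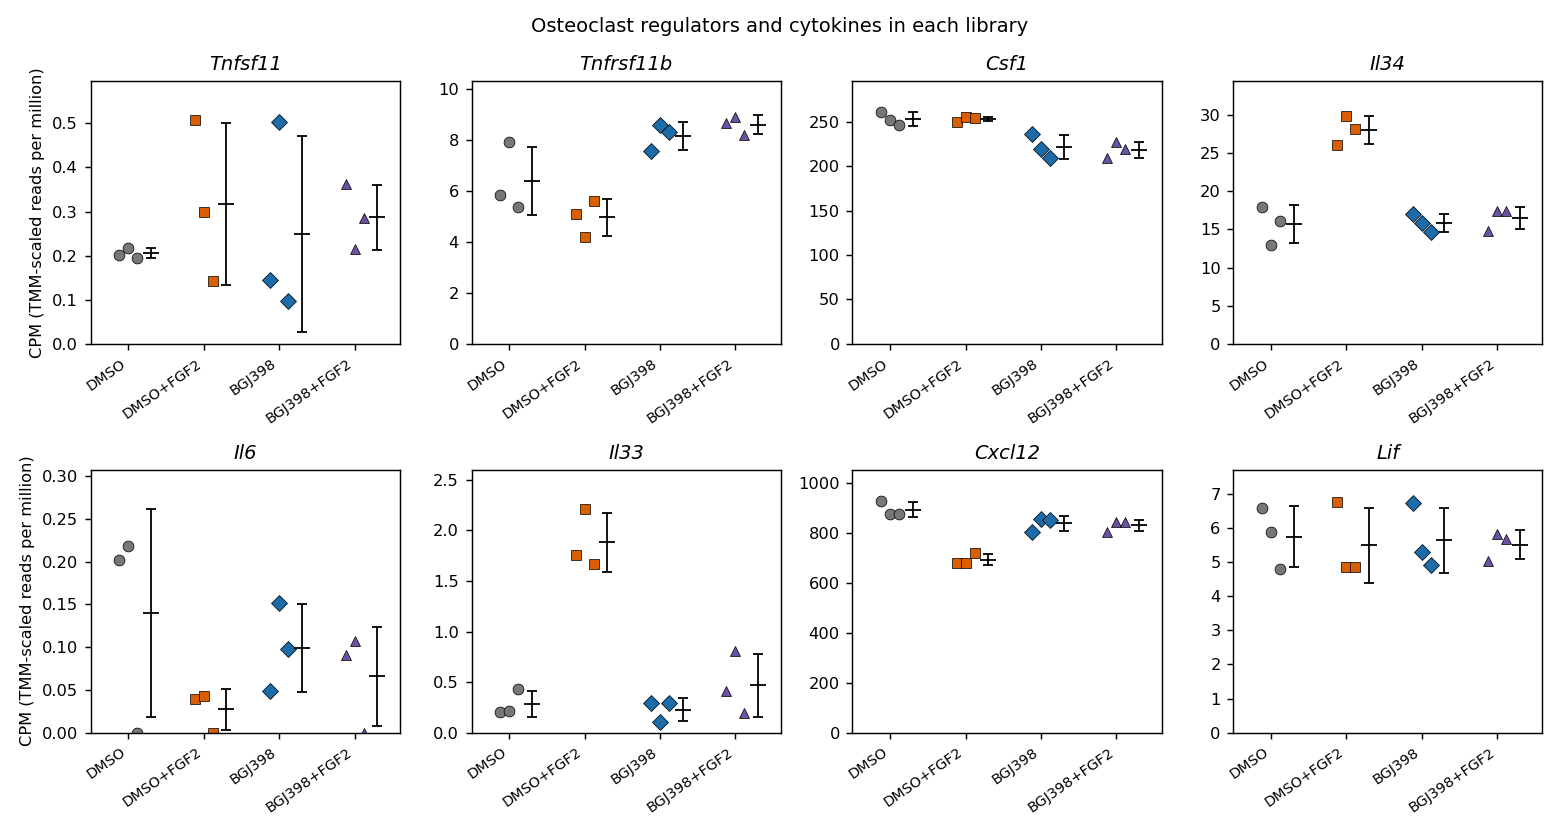
Levels of the 8 genes in each library, as CPM (TMM-scaled) from 0 on the vertical axis, with the 4 groups on the horizontal axis. Each point is 1 library, and the bar beside it is the mean with its SD (n = 3). Il34 and Il33 are highest and Cxcl12 is lowest in the DMSO+FGF2 libraries, and Csf1 is lower in both groups with BGJ398.

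By abundance the 8 genes fell into steps that were far apart. In DMSO, mean TPM was 693 ± 15.3 for Cxcl12 (SD, n = 3; levels and shares are given with the SD and log2 differences with the SE), 126 ± 4.49 for Csf1 and 25.7 ± 3.00 for Il34. Lif (5.51 ± 1.19) and Tnfrsf11b (4.91 ± 1.05) overlapped. Part of the Il34 TPM and 51.9% of the Lif TPM in DMSO lay on short non-coding transcripts described below, so Lif and Tnfrsf11b cannot be ranked. Il6 (0.432 ± 0.376), Il33 (0.238 ± 0.109) and Tnfsf11 (0.199 ± 0.0101) lay lowest and rested on 10, 21 and 15 reads over the 3 libraries, so their order cannot be read. With FGF2 in DMSO the first 3 kept that order at 530 ± 24.5, 119 ± 1.95 and 43.6 ± 3.98, and Il33 reached 1.50 ± 0.202.

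FGF2 in DMSO changed 3 of the 6 tested genes: Il34 and Il33 rose and Cxcl12 fell (edgeR quasi-likelihood test with Benjamini-Hochberg adjustment, as for all adjusted p-values here, threshold 0.05), where 13.4% of all tested genes passed (7.57% higher and 5.82% lower). Il33 could enter this test only through its reads in the DMSO+FGF2 libraries, and leaving it aside the count was 2 of 5. Under BGJ398, FGF2 changed none of the 6 (0 at an unadjusted p under 0.05, and 0 by DESeq2 and limma-voom), where 0.0% of all genes passed. BGJ398 without FGF2 changed none of the 6 by edgeR or limma-voom and 1, Csf1, by DESeq2, with 2 at an unadjusted p under 0.05 and 0.327% of all genes passing (0.151% higher and 0.175% lower). With FGF2 present in both groups, BGJ398 changed 5 of the 6, where 22.2% of all genes passed (10.8% higher and 11.4% lower): Tnfrsf11b and Cxcl12 were higher and Il34, Il33 and Csf1 lower with the inhibitor. Here too Il33 could enter the test only through the DMSO+FGF2 libraries, which favored a lower level with the inhibitor. BGJ398+FGF2 against DMSO gave 0 of 6 by edgeR and limma-voom and 1, again Csf1, by DESeq2, with 2 at an unadjusted p under 0.05 and 0.734% of all genes passing (0.351% higher and 0.383% lower). The difference between the FGF2 changes in the 2 settings, the interaction, passed for Il34 and Cxcl12, 2 of 6, where 4.24% of all genes passed. It was positive for Cxcl12 (1.99% of all genes) and negative for Il34 (2.25%). These comparisons share groups, so they are not independent of each other. The 8 genes were chosen with earlier results of these data known, so the shares of all genes are no test of an excess. Without the 3 libraries that stood apart the counts were 3, 0, 1, 5, 1 and 2 in the same order, the additions again being Csf1. By the weaker measure of groups whose libraries did not overlap in CPM, the counts were 3 of 6 for FGF2 in DMSO (37.6% of all genes), 0 under BGJ398 (6.31%), 2 for BGJ398 without FGF2 (17.2%), 5 with FGF2 (34.8%) and 3 for BGJ398+FGF2 against DMSO (19.1%). The counts for FGF2 in DMSO and for BGJ398 with FGF2 include Il33, which was favored in the same way.

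**Figure D2:**
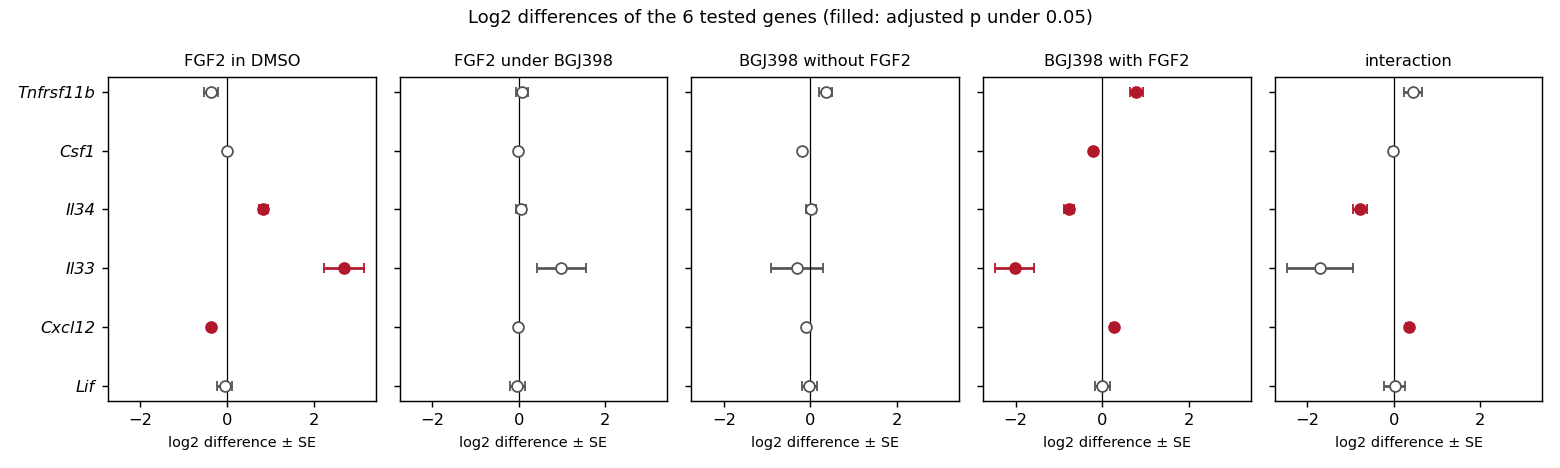
Log2 differences of the 6 tested genes in 5 comparisons, on the horizontal axis, with the SE of each as the bar; the genes are on the vertical axis. Filled red points have an adjusted p under 0.05 and open points do not. Il34, Il33 and Cxcl12 differ from 0 for FGF2 in DMSO, none does under BGJ398, and the interaction passes for Il34 and Cxcl12.

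The pair that sets RANKL activity was expressed unequally, with the decoy receptor far above its ligand. Tnfrsf11b (ENSMUSG00000063727) was measured at 5.87, 7.93 and 5.40 CPM in the 3 DMSO libraries, 5.12, 4.18 and 5.63 with FGF2, 7.57, 8.61 and 8.33 with BGJ398, and 8.69, 8.93 and 8.20 with both agents. The 2 groups with BGJ398 lay above every DMSO+FGF2 library, while the DMSO libraries overlapped with those of DMSO+FGF2 and BGJ398 and lay below those of BGJ398+FGF2. With FGF2 present, Tnfrsf11b was higher under BGJ398 by 0.79 ± 0.15 (log2 ± SE, adjusted p = 0.00241, 1.73-fold). Its difference for FGF2 in DMSO was -0.37 ± 0.15 (adjusted p = 0.139), that for BGJ398 alone 0.35 ± 0.15 (adjusted p = 0.552), and the interaction 0.45 ± 0.21 (adjusted p = 0.308). BGJ398+FGF2 against DMSO gave 0.42 ± 0.15 (adjusted p = 0.23). The difference that passed thus lies between 2 groups, neither of which differed from DMSO beyond the threshold.

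Tnfsf11 (ENSMUSG00000022015) was near the limit of detection in a line labelled as osteocyte-like. It had 15 reads in the 3 DMSO libraries together, 23 with FGF2, 15 with BGJ398 and 18 with both, or 2 to 13 reads per library. In CPM these were 0.202, 0.218 and 0.195 in DMSO, 0.508, 0.298 and 0.143 with FGF2, 0.144, 0.504 and 0.0980 with BGJ398, and 0.362, 0.215 and 0.284 with both. The groups overlapped, and 3 reads in a library correspond to 0.109 to 0.161 CPM, so a difference between groups was not detectable at this depth. Tested without the filter on low counts, FGF2 in DMSO gave 0.63 ± 0.72 (log2 ± SE, adjusted p = 0.696). The ratio of mean Tnfrsf11b to mean Tnfsf11 TPM was 24.7 in DMSO, 12.5 with FGF2, 25.2 with BGJ398 and 23.1 with both. Among single libraries it ran from 7.98 to 31.5 with FGF2 and from 13.04 to 65.5 with BGJ398, so these ratios cannot be ranked.

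Of the partners of RANKL, RANK itself (Tnfrsf11a) had 0 to 1 reads per library, and Lgr4, a second receptor for RANKL, stood at 18.3 to 23.8 CPM over all libraries. None of the 5 tested genes of this list, which also held Traf6, the adaptor of RANK, and the proteases Mmp14, Adam10 and Adam17 that can release membrane-bound ligands, passed in any comparison. The sheddase Mmp14 was the most abundant of them in CPM, at 733 to 827.

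Of the 2 ligands of CSF1R, Il34 rose with FGF2, and for Csf1 no FGF2 difference passed. Il34 (ENSMUSG00000031750) was measured at 17.9, 13 and 16.1 CPM in DMSO and at 26.1, 29.8 and 28.2 with FGF2. With BGJ398 it was 17.1, 15.9 and 14.6, and with both agents 14.8, 17.3 and 17.3. Every DMSO+FGF2 library lay above all 9 others, which overlapped between their groups. Il34 rose with FGF2 in DMSO by 0.84 ± 0.11 (adjusted p = 0.000212, 1.79-fold), and the difference under BGJ398 was 0.06 ± 0.12 (adjusted p = 1). The interaction was -0.78 ± 0.16 (adjusted p = 0.013), and with FGF2 present BGJ398 lowered Il34 by 0.76 ± 0.11 on the log2 scale (adjusted p = 0.000348).

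Csf1 (ENSMUSG00000014599) was at 261, 252 and 246 CPM in DMSO and 250, 255 and 254 with FGF2. It was 236, 220 and 209 with BGJ398 and 209, 227 and 219 with both agents. The groups without the inhibitor overlapped, and each lay above the groups with it. Csf1 was lower under BGJ398 with FGF2 present by 0.21 ± 0.05 on the log2 scale (adjusted p = 0.0121), and leaving out library 1 of BGJ398+FGF2 gave -0.18 with an adjusted p of 0.0576. Without FGF2 the difference was of similar size, -0.19 ± 0.05 (adjusted p = 0.232). Leaving out single libraries gave adjusted p-values of 0.104 to 0.698. Without the 3 libraries that stood apart, an alternative chosen after seeing the data, the difference became -0.24 with an adjusted p of 0.00443. In that setting the calls over all genes for this comparison rose from 41 to 730. The Csf1 difference for FGF2 in DMSO was -0.00 ± 0.05 (adjusted p = 0.999) and its interaction -0.02 ± 0.08 (adjusted p = 0.929).

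Per length, Il34 made up 16.9% ± 1.14 of the summed Csf1 and Il34 TPM in DMSO and 26.7% ± 1.50 with FGF2. The share was 19.4% ± 1.77 with BGJ398 and 19.5% ± 1.16 with both. Some of the Il34 TPM belongs to short non-coding transcripts described below, and over protein-coding transcripts alone the shares were 11.1%, 18.3%, 12.9% and 14.5% in the same order. By either measure the 3 DMSO+FGF2 libraries lay above the other 9.

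The receptor gene Csf1r was near the limit of detection, at 2 to 19 reads per library, with a difference of -0.75 ± 0.68 for FGF2 in DMSO (adjusted p = 0.539), and Ptprz1, which encodes an alternative receptor of IL-34, had 0 to 1. The heparan sulfate proteoglycan Sdc1, which also binds IL-34, stood at 191 to 234 CPM, and its difference for FGF2 in DMSO was 0.11 ± 0.06 (adjusted p = 0.268). Neither of the 2 tested genes of this list passed in any comparison.

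Cxcl12 was the most abundant of the 8 genes and the one that fell with FGF2. Cxcl12 (ENSMUSG00000061353) was measured at 926, 876 and 873 CPM in DMSO and 677, 679 and 717.5 with FGF2. With BGJ398 it was 802, 855 and 852, and with both agents 804, 844 and 841. Every DMSO+FGF2 library was below all 9 others, and both groups with BGJ398 lay just below the DMSO libraries without overlap. Cxcl12 fell with FGF2 in DMSO by 0.37 ± 0.05 on the log2 scale (adjusted p = 0.000273), so that it fell by 22.5%. Under BGJ398 the FGF2 difference was -0.01 ± 0.05 (adjusted p = 1), and the interaction was 0.36 ± 0.07 (adjusted p = 0.0116). BGJ398 raised Cxcl12 with FGF2 present by 0.26 ± 0.05 (adjusted p = 0.00234), and without FGF2 its difference was -0.09 ± 0.05 (adjusted p = 0.696).

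Of the receptors of CXCL12, Cxcr4, which signals to migration, had 3 to 16 reads per library and was not tested. Ackr3, the atypical receptor that takes CXCL12 up and degrades it, rose with FGF2 in DMSO, from 4.50 to 4.54 CPM in DMSO to 6.33 to 7.15 with FGF2, by 0.59 ± 0.14 (adjusted p = 0.0104; 0.131 on counts derived from TPM). It stood at 4.31 to 5.09 CPM with BGJ398 and 3.34 to 4.74 with both agents, and fell under BGJ398 with FGF2 present by 0.72 ± 0.14 on the log2 scale (adjusted p = 0.00253). The protease Dpp4, which inactivates CXCL12, had 0 reads in all libraries. In the DMSO+FGF2 libraries the ligand was thus lowest and this receptor highest.

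Il33 had the largest fold change of the 8 genes, at low read counts. Il33 (ENSMUSG00000024810) had 21 reads in the 3 DMSO libraries together, 132 with FGF2, 14 with BGJ398 and 28 with both. It was measured at 0.202, 0.218 and 0.430 CPM in DMSO and 1.76, 2.22 and 1.67 with FGF2. With BGJ398 it was 0.289, 0.101 and 0.294, and with both agents 0.407, 0.807 and 0.189. Each DMSO+FGF2 library was above all 9 others. Il33 rose with FGF2 in DMSO by 2.69 ± 0.46 (adjusted p = 0.00154, 6.45-fold) and fell under BGJ398 with FGF2 present by 2.02 ± 0.44 on the log2 scale (adjusted p = 0.00566). It passed the filter on low counts through the DMSO+FGF2 libraries only, so that it could enter the test only with a higher level there. Under BGJ398 the FGF2 difference was 0.99 ± 0.57 (adjusted p = 1), and the interaction of -1.70 ± 0.77 (adjusted p = 0.276) did not pass, so a smaller Il33 response under BGJ398 was not shown.

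The receptor of IL-33 was present at a higher level than its ligand and also rose. Il1rl1, which encodes ST2, had a mean TPM of 26.4 ± 2.15 in DMSO, 47.5 ± 4.58 with FGF2, 27.5 ± 2.24 with BGJ398 and 28.7 ± 0.369 with both. It rose with FGF2 in DMSO by 0.90 ± 0.08 (adjusted p = 1.07e-05), from 33.9 to 38.4 CPM to 61.6 to 73.7, and its interaction was -0.83 ± 0.12 (adjusted p = 0.00128). Il1rl1 also yields a secreted decoy form, and the gene totals given here do not separate the forms. Il1rap, the co-receptor that ST2 needs to signal, fell by 0.53 ± 0.10 on the log2 scale (adjusted p = 0.00326), from 16.4 to 17.7 CPM to 11.3 to 12.4. Of the 5 tested genes of the IL-1 family list these 2 passed for FGF2 in DMSO, where 13.4% of all tested genes passed. Il1b had 0 reads, and Il1a 0 to 4 reads per library.

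No difference was detected for the gp130 cytokines Il6 and Lif. Il6 (ENSMUSG00000025746) had 4, 6 and 0 reads in the DMSO libraries, 1, 1 and 0 with FGF2, 1, 3 and 2 with BGJ398, and 2, 2 and 0 with both. The groups overlapped, and at this depth no difference was detectable. Lif (ENSMUSG00000034394) was measured at 6.57, 5.88 and 4.78 CPM in DMSO, 6.76, 4.86 and 4.85 with FGF2, 6.72, 5.29 and 4.90 with BGJ398, and 5.02, 5.82 and 5.68 with both. All 4 groups overlapped. The Lif difference was -0.06 ± 0.17 for FGF2 in DMSO (adjusted p = 0.88) and lay between -0.06 and 0.02 in the 6 comparisons. The SE of 0.17 leaves differences of that size undetectable.

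Receptors and downstream genes of this family did pass. Of 13 tested genes of the IL-6 family list, 4 rose with FGF2 in DMSO and 1 fell, where 7.57% of all tested genes rose and 5.82% fell. Those that rose were Il6ra, the receptor of IL-6, by 0.60 ± 0.10 (adjusted p = 0.00111), Osmr, the oncostatin M receptor, by 0.60 ± 0.08 (adjusted p = 0.00028), the transcription factor Stat3 by 0.35 ± 0.05 (adjusted p = 0.000296), and Socs3, the feedback inhibitor that STAT3 induces, by 0.67 ± 0.09 (adjusted p = 0.000262). Lifr, the receptor of LIF, fell by 0.48 ± 0.12 on the log2 scale (adjusted p = 0.0135). That call was lost without library 2 of DMSO, at an adjusted p of 0.0619, and without library 2 of DMSO+FGF2, at 0.0631. The shared chain gp130 (Il6st) stood at 308 to 375 CPM over all libraries, with a difference of -0.02 ± 0.07 (adjusted p = 0.898). The call for Lifr was also lost on counts derived from TPM, at 0.476. Under BGJ398 none of the 13 passed for FGF2, and the interaction passed for Il6ra, Osmr, Stat3 and Socs3, where 4.24% of all tested genes passed.

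**Figure D3:**
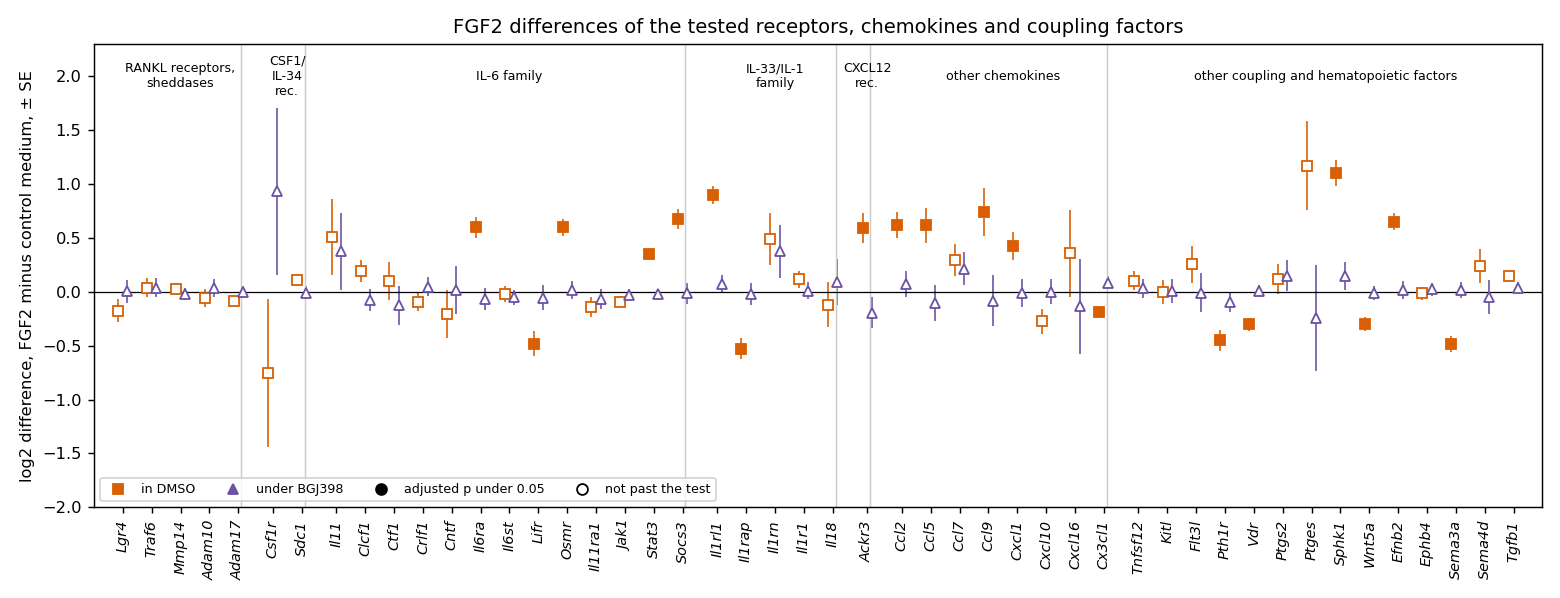
Log2 differences (± SE) between FGF2 and control medium, on the vertical axis, for the 48 tested genes of the 7 lists of receptors, chemokines and coupling factors, named on the horizontal axis. Squares are differences in DMSO and triangles differences under BGJ398, and filled symbols passed the test. In DMSO 12 genes are filled above 0 and 7 below, and no triangle is filled.

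Over all 7 lists of partner genes, 48 of 69 genes were tested. FGF2 in DMSO raised 12 and lowered 7, where 13.4% of all tested genes changed, and the median difference over the 48 was 0.11 against -0.00 over all tested genes. The lists were chosen with earlier results of these data known, so the shares of all genes are no test of an excess. Under BGJ398 FGF2 changed 0 of the 48 by edgeR, DESeq2 and limma-voom, with 0 at an unadjusted p under 0.05. Over all 12542 genes the count was also 0 by edgeR and limma-voom, 5 by DESeq2 and 325 at an unadjusted p under 0.05. BGJ398 with FGF2 present raised 6 and lowered 14 of the 48, where 22.2% of all genes changed. Without the 3 libraries that stood apart the counts of changed genes were 22 for FGF2 in DMSO and 21 for this comparison. Leaving out single libraries gave 15 to 20 and 16 to 21 in the same order. The remaining settings, including the one without the 3 libraries, gave 13 to 22 and 18 to 21. BGJ398 without FGF2 changed 1 of the 48 (0.327% of all genes), the parathyroid hormone receptor Pth1r, by 0.51 ± 0.09 (adjusted p = 0.0393), and that call was lost on leaving out any 1 of the DMSO or BGJ398 libraries, or library 1 or 3 of DMSO+FGF2, at adjusted p-values up to 0.226.

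Among 8 other tested chemokines, FGF2 in DMSO raised 4 and lowered 1, where 7.57% of all tested genes rose and 5.82% fell. Ccl2, which attracts monocytes, rose by 0.62 ± 0.12 (adjusted p = 0.00332), from 7.41 to 9.48 CPM to 11.8 to 13.8. Ccl5 rose by 0.62 ± 0.16 (adjusted p = 0.0223), a call lost without library 1 of DMSO (adjusted p = 0.0622) or library 2 of DMSO+FGF2 (adjusted p = 0.102). Ccl9 (0.74 ± 0.22, adjusted p = 0.0417), Cx3cl1 (-0.19 ± 0.06, adjusted p = 0.0454) and Cxcl1 (0.43 ± 0.13, adjusted p = 0.0486) passed close to the threshold. Their calls were lost in 8, 13 and 12 of 21 other settings, for each of them without library 2 of DMSO (adjusted p = 0.12, 0.187 and 0.173), library 3 of DMSO (0.135, 0.0591 and 0.141) or library 3 of DMSO+FGF2 (0.0867, 0.124 and 0.123). Cxcl12 thus moved in the opposite direction to Ccl2 in the same libraries.

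Of 14 other tested coupling and hematopoietic factors, 2 rose and 4 fell with FGF2 in DMSO, beside the same 7.57% and 5.82% of all genes. Sphk1, the kinase that makes the osteoclast-derived coupling lipid sphingosine 1-phosphate, rose by 1.10 ± 0.12 (adjusted p = 4.86e-05), and Efnb2, the membrane ligand of EphB4, by 0.65 ± 0.08 (adjusted p = 0.000121). The semaphorin Sema3a fell by 0.48 ± 0.08 on the log2 scale (adjusted p = 0.000724), the vitamin D receptor Vdr by 0.30 ± 0.06 (adjusted p = 0.00249), Pth1r by 0.45 ± 0.10 (adjusted p = 0.00682) and Wnt5a by 0.30 ± 0.07 (adjusted p = 0.00826; 0.0784 on counts derived from TPM). Vdr and Pth1r are the receptors through which vitamin D and parathyroid hormone raise Tnfsf11 in bone cells. Tnf had 0 reads, and Csf2 at most 1 and Csf3 at most 2 reads in a library.

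**Figure D4:**
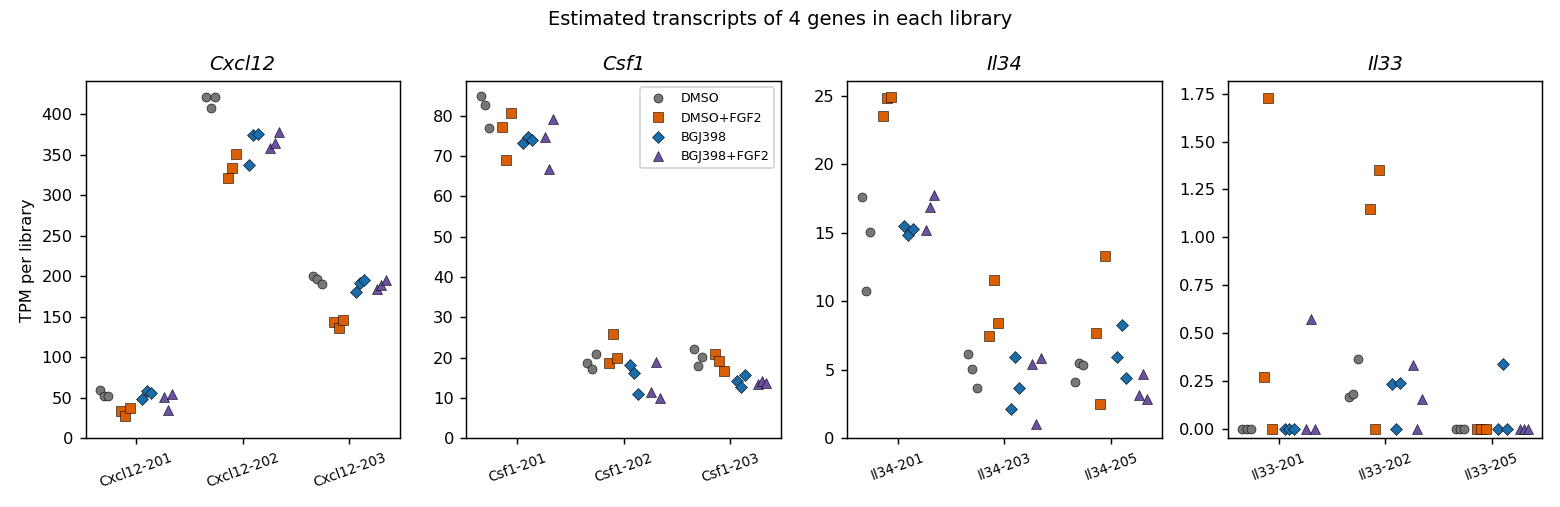
TPM of the transcripts that hold at least 5% of each gene, on the vertical axis, with 1 point per library, for Cxcl12, Csf1, Il34 and Il33; the transcripts are on the horizontal axis. Each of the 3 Cxcl12 transcripts is lower in the DMSO+FGF2 than in the DMSO libraries, and the Il33 estimate falls on different transcripts depending on the library.

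The deposited estimates are per transcript, and they show which forms the gene totals rest on. Cxcl12 was spread over 3 coding transcripts of 119, 89 and 93 residues before the stop. Cxcl12-202, of 89 residues, held 60.1% of Cxcl12 TPM in DMSO and 63.3% with FGF2, and Cxcl12-203 held 28.2% and 26.8%. Cxcl12-201, the longest at 119 residues, held 7.87% ± 0.45 in DMSO and 6.23% ± 0.79 with FGF2, at 51.9 to 59.5 TPM against 27.3 to 38.0. The DMSO and DMSO+FGF2 libraries did not overlap for any of the 3, so the lower total with FGF2 was not the loss of a single form.

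Csf1-201 and Csf1-203 encode the same 552 residues, and Csf1-202 a shorter protein of 257 residues. Csf1-201 held 64.6% ± 3.05 of Csf1 TPM in DMSO, 63.4% ± 4.07 with FGF2, 68.4% ± 2.45 with BGJ398 and 71.0% ± 5.64 with both. Csf1-203 stood at 17.8 to 22.1 TPM in DMSO, 16.7 to 20.8 with FGF2, 12.7 to 15.6 with BGJ398 and 13.4 to 14.2 with both, so that the groups with and without the inhibitor did not overlap. Csf1-202 overlapped between them, at 17.3 to 25.8 TPM over the 6 libraries without the inhibitor and 10.1 to 18.9 over the 6 with it. The main form Csf1-201 overlapped too, at 69.0 to 84.8 TPM without the inhibitor and 66.7 to 79.2 with it.

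Il34-201, which encodes 235 residues, held 55.8% ± 7.59 of Il34 TPM in DMSO and 56.2% ± 3.96 with FGF2, and stood at 10.8 to 17.6 and 23.5 to 24.9 TPM. The rest lay mainly on Il34-203 and Il34-205, short processed transcripts without a coding region, which held few reads (3 to 49 and 14 to 69 per library) but count for much in TPM because of their length. The same holds for Lif-203, of 390 bases, which held 2 to 12 reads per library. Its share of Lif TPM, averaged over the libraries of a group, was nevertheless 33.2% to 61.6% in the 4 groups. Lif is therefore compared by reads.

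The reads of Il33 could not be divided between its main transcripts, Il33-201 and Il33-202, which encode the same 266 residues. In DMSO all fell on Il33-202 in each library. With FGF2 they fell mostly on Il33-202 in library 1 (81.0%), wholly on Il33-201 in library 2 and wholly on Il33-202 in library 3, and the 2 reads of BGJ398 library 2 fell on Il33-205. All are summed in the gene total, and which of the 2 starts shown above was used cannot be read from these estimates.

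For each tested gene, the 3 protein-coding genes with the most similar pattern over the 12 libraries were found by Pearson's r of log2 CPM, leaving out genes whose mean was under 5 CPM. The libraries share their groups, so a high r follows wherever 2 genes differ between groups in the same way, and r is given as a description. Il34 was most like Syvn1 (r = 0.97), Hspa5 (0.96) and Slc39a13 (0.96). Hspa5, a chaperone of the endoplasmic reticulum, had a mean of 1299 CPM with FGF2 and 719 in DMSO, 731 in BGJ398 and 766 in BGJ398+FGF2. Cxcl12 was most like Adgrf5, Rtl3 and Sorbs2 (r = 0.95 each), and Il33 like Psme1 (0.96), Rmnd5b (0.95) and Hes6 (0.95).

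Csf1 was most like Spry2 (r = 0.93), Epha2 (0.93) and Cuedc1 (0.93). Spry2, a feedback inhibitor of receptor tyrosine kinase signaling, had means of 5.89 and 6.28 CPM without the inhibitor and 4.67 and 4.38 with it. Tnfrsf11b was most like Nt5e (0.95), Scarb2 (0.94) and Plaa (0.94), and Nt5e, the ectoenzyme CD73, had means of 16.8 CPM in DMSO, 12.2 with FGF2, 20.1 with BGJ398 and 23.7 with both. Lif had no close match: its first was Nop2 (0.81), followed by Mitd1 and Ptpn2 (0.76 each), whose group means differed little.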

How the data were processed

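Reads were quantified per transcript with Salmon, with genome build GRCm39, per the submitters' processing notes. Its version, any trimming and the use of strand were not stated in what was read here. The authors deposited expected counts, TPM and effective lengths for 116178 transcripts, per the file headers. By transcript identifier 114656 matched GENCODE M21 (GRCm38), used for names only, and unmatched reads (0.499% to 0.641% of a library) were left out. Expected counts were summed per gene, rounded and tested with edgeR 4.0.16 (R 4.3.3): filterByExpr, TMM, quasi-likelihood test on the 4 group means over 12 libraries, Benjamini-Hochberg adjustment over 12542 genes, threshold 0.05, 2-sided. An SE is the log2 difference divided by the root of F. CPM are TMM-scaled, and the TPM are the authors' values summed per gene. DESeq2 1.42.0, limma 3.58.1 and other settings served as alternatives. On simulated counts with known changes the test recovered 74% of 1.5-fold and 85% of 2-fold changes for FGF2 in DMSO (12444 genes), with 9 false calls. For the interaction the shares were 57% and 83% (12443 genes), with 4 false calls. Such shares are averages over genes of all levels and do not hold for genes with few reads, such as Il33.

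The members and lists were chosen with earlier results of these data known. Named were all 8 members, receptors of the members, up to 4 called genes per other list and comparison with the smallest p (Cxcl1, Wnt5a and Pth1r for FGF2 in DMSO, marker genes, and the genes given only by level are named beyond this, after their values were seen), and the 3 most alike genes. Nothing in the labels shows separate cultures behind a triplicate, so the spread that the p-values rest on could be technical. No 2 libraries of a group agreed within counting noise.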

Additional observations from a re-analysis of the deposited data

Results flagged for a closer look

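Marker genes were left aside here. Among the 8 signals and the 7 lists of partner genes, 12 genes had an FGF2 change under BGJ398 that differed from that in DMSO. The test was the interaction test of edgeR (adjusted over 12542 genes), which 4.24% of all tested genes passed. Of the 8 signals these were Il34, with a difference of -0.78 ± 0.16 (log2 ± SE, adjusted p = 0.013), and Cxcl12, with 0.36 ± 0.07 (adjusted p = 0.0116). Both kept the call in all 20 other settings tried.

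Of the IL-6 family, the interaction was -0.69 ± 0.13 for Socs3 (adjusted p = 0.00849) and -0.67 ± 0.14 for Il6ra (adjusted p = 0.0159). It was -0.58 ± 0.12 for Osmr (adjusted p = 0.0121) and -0.38 ± 0.07 for Stat3 (adjusted p = 0.00665). These genes rose with FGF2 in DMSO. Their FGF2 differences under BGJ398 were -0.02 for Socs3, -0.07 for Il6ra, 0.02 for Osmr and -0.02 for Stat3 (adjusted p = 1 each). On counts derived from TPM the calls of Il6ra (adjusted p = 0.111), Osmr (0.186) and Sphk1 (0.119) were lost. The IL-33 receptor Il1rl1 differed by -0.83 ± 0.12 (adjusted p = 0.00128). Ackr3, the scavenging receptor of CXCL12, differed by -0.79 ± 0.20 (adjusted p = 0.0392), a call that was lost in 13 of 20 other settings.

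Of the coupling factors, Sphk1 differed by -0.96 ± 0.18 (adjusted p = 0.0067), Efnb2 by -0.63 ± 0.12 (adjusted p = 0.00664) and Sema3a by 0.50 ± 0.11 (adjusted p = 0.0155; 0.0535 without library 2 of DMSO). The vitamin D receptor Vdr differed by 0.31 ± 0.08 (adjusted p = 0.0417), which was also lost in 13 of 20 other settings. Single genes were not searched for outlying libraries, since each group holds 3.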

How the results depend on the processing

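Of 208 repeats of the called differences of the 8 genes, 207 kept direction and call. The exception was Csf1, BGJ398 with FGF2, at -0.18 without library 1 of BGJ398+FGF2. The repeats share most of their libraries, so they are not independent. They include those of Il33, which passed the filter on low counts through the DMSO+FGF2 libraries only. With DESeq2, and also without the 3 libraries that stood apart (an alternative chosen after seeing the data), 1 gene was called for BGJ398 without FGF2 and 1 for BGJ398+FGF2 against DMSO, in each case Csf1. Leaving out each library in turn gave 3 called genes for FGF2 in DMSO, 0 for FGF2 under BGJ398, 0 for BGJ398 without FGF2, 4 to 5 for BGJ398 with FGF2, 0 against DMSO and 2 for the interaction.

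Of the repeats of differences that were not called, 482 stayed uncalled in the same direction, 52 changed sign and 4 were called, all 4 of Csf1. For Csf1, FGF2 in DMSO became 0.0019 with RLE factors, 0.0038 with upper-quartile scaling, 0.0021 with DESeq2, 0.00024 with limma-voom and 0.00016 with the replicate block, and the interaction 0.00015 without the 3 libraries. Without those 3, Tnfrsf11b under BGJ398 became -0.0076, Il34 with BGJ398 alone -0.033, and Lif 0.028 for FGF2 in DMSO and 0.068 under BGJ398. On counts derived from TPM (length-scaled), Il34 under BGJ398 became -0.023, Cxcl12 under BGJ398 0.018, Il33 with BGJ398 alone 0.18, and Lif 0.22 for FGF2 in DMSO, 0.59 under BGJ398 and 0.14 against DMSO. Lif for BGJ398 with FGF2 became 0.0064 with upper-quartile scaling, 0.0014 with limma-voom and 0.0196 with the replicate block. Leaving out each library in turn gave, for Csf1, -0.0195 to 0.023 for FGF2 in DMSO, -0.062 to 0.0246 under BGJ398 and -0.062 to 0.0249 for the interaction; for Cxcl12 under BGJ398 -0.041 to 0.0104; for Il33 with BGJ398 alone -0.53 to 0.12; for Il34 -0.10 to 0.12 with BGJ398 alone and -0.044 to 0.18 against DMSO; and for Lif -0.24 to 0.046 (FGF2 in DMSO), -0.12 to 0.11 (under BGJ398), -0.17 to 0.079 (BGJ398 alone), -0.081 to 0.18 (BGJ398 with FGF2), -0.18 to 0.0456 (against DMSO) and -0.0796 to 0.20 (interaction).

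Same-numbered libraries did not deviate together (18 correlations, -0.141 to 0.207), and the numbers were not taken as pairs; with the replicate block every call of the 8 genes was kept, Il34 for FGF2 in DMSO at 0.84. Over all genes the count of calls moved by over 1.5 times in some settings. For FGF2 in DMSO it was 1680, 2611 without the 3 libraries and 1018 to 2256 leaving out single libraries. Under BGJ398 it was 0, 6 without the filter, 5 with DESeq2, 1 with only the groups compared and 4 without the 3 libraries. For BGJ398 without FGF2 it was 41, and 83, 149, 64, 21 (block), 12 (length-scaled) and 730 in that order, with 9 to 104 leaving out single libraries. For BGJ398 with FGF2 it was 2782, 1794 with only the groups compared and 1815 length-scaled; against DMSO 92, and 173, 313, 13, 36, 39 and 861 in the order used for BGJ398 alone, with 11 to 114 leaving out single libraries. For the interaction it was 532, 821 with DESeq2, 350 length-scaled, 1038 without the 3 libraries and 328 to 956 leaving out single libraries. The causes were not tested. Of the repeats of called differences of the other listed genes, 939 kept the call and 101 lost it. Read depth limits Tnfsf11, Il6 and Il33 (2 to 13, 0 to 6 and 2 to 52 reads per library).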
